A study of Mus musculus with 2 samples.

Results

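The 8 genes described here encode the mitochondrial machinery that builds iron-sulfur clusters: Nfs1, Lyrm4, Iscu, Hscb, Glrx5, Isca1, Isca2 and Bola3. They were chosen by name as core members of that pathway, and they are 8 of 43346 gene rows and 8 of 21461 nuclear protein-coding genes in the tables. All 8 symbols were found, with 29 transcripts between them. The values come from total RNA-seq of erythroblasts, cells on the way to becoming red blood cells, in 1 group with 2 libraries. The labels give primary erythroblasts, the strain C57BL/6J, male sex, adult life stage, an age of 5-6 weeks, an RNA input of 1 ng and added spike-ins, with no second genotype, treatment or time. The linked protocols describe isolation of progenitors from bone marrow and RNA-seq from pools of cells. Both libraries, called replicate 1 and replicate 2, share a single donor entry, and separate animals are not stated, so the spread between them may be technical. The design holds no contrast of conditions, so levels are described and not tested.

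Iron-sulfur clusters are cofactors of electron transport, of the citric acid cycle and of DNA synthesis and repair. Inside the mitochondrion, the cysteine desulfurase NFS1, held in its active form by LYRM4, supplies sulfur to the scaffold protein ISCU, on which a cluster is first built. The co-chaperone HSCB then helps release that cluster, and GLRX5 passes it on. ISCA1, ISCA2 and BOLA3 act late, on the larger type of cluster and its delivery to client enzymes. In red cell precursors the pathway stands beside heme synthesis, because both draw on mitochondrial iron, ferrochelatase carries a cluster, and the iron sensor IRP1 switches function with its cluster.

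Replicate 1 held 80806663 expected counts (estimated reads) and replicate 2 held 117032607. The nuclear genes that code for protein held 5.44% and 5.82% of all counts, and 4.68% and 5.10% of TPM (transcript abundance per length, scaled to a fixed total in each library). Levels are therefore also given as rescaled TPM, TPM scaled to the same total over nuclear protein-coding genes alone. All 10 listed erythroid markers reached a TPM of 1 in both libraries and summed to 17694 and 19035 TPM. All 10 listed neutrophil markers did so too, at 2046 and 2359 TPM in sum, and 7 of 8 monocyte and macrophage markers, at 213 and 247 TPM. All 4 mast cell, basophil and eosinophil markers reached it as well, at 35.99 and 31.82 TPM in sum. Of 4 T and NK cell markers 1 did, the list summed to 5.08 and 6.45 TPM, and Cd3d and Cd8a in it had 0 counts in both libraries. The B lineage, megakaryocyte, and stem and progenitor lists also had 1 of 4 markers each at that level. B lineage markers summed to 12.13 and 13.06 TPM, megakaryocyte markers to 3.51 and 5.1 TPM, and stem and progenitor markers to 2.28 and 2.07 TPM. Which of these cells carried the transcripts described below was not tested, and in bulk RNA fewer cells of a type cannot be told apart from less RNA per cell.

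Levels of the 8 genes spanned from Isca1 at 31.3 ± 0.198 TPM (SD, n = 2 libraries, as throughout) down to Lyrm4 at 0.480 ± 0.325 TPM. Of the 8, 6 reached a TPM of 1 in both libraries, against 14.5% of nuclear protein-coding genes. All 8 had at least 20 expected counts in both, against 38.4% of those genes. Their median was 5.57 TPM in replicate 1 and 6.735 TPM in replicate 2. The median over all nuclear protein-coding genes was 0.03 and 0.02 TPM, and among those that reached 1 TPM in each library it was 2.58 and 2.90 TPM. Together the 8 genes took 0.152% and 0.156% of nuclear protein-coding TPM. Isca1 and Glrx5 made up 69.2% and 63.9% of that sum, and Nfs1 with Lyrm4 made up 1.55% and 1.31%.

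By mean TPM the order was Isca1, Glrx5, Iscu, Hscb, Bola3, Isca2, Nfs1 and Lyrm4. The ranges of the libraries overlapped for 2 of the 7 neighbouring pairs, Iscu with Hscb and Nfs1 with Lyrm4. Within each library Iscu stood above Hscb, by 1.15 and 1.11 times, while the order of Nfs1 and Lyrm4 differed between the libraries, so that pair did not differ beyond its spread. Hscb and Bola3 lay close, with 5.71 TPM as the lower value of Hscb and 5.43 TPM as the higher value of Bola3. Bola3 and Isca2 lay as close, at 5.16 and 5.00 TPM. Isca2 and Nfs1 were further apart, with 3.09 TPM as the lower value of the first and 0.850 TPM as the higher value of the second. The sequence of 8 names was the same in rescaled TPM and in the posterior mean of TPM. In the posterior mean the ranges of Hscb and Bola3 overlapped too, with 5.91 as the lower value of Hscb and 5.95 as the higher value of Bola3.

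**Figure D1:**
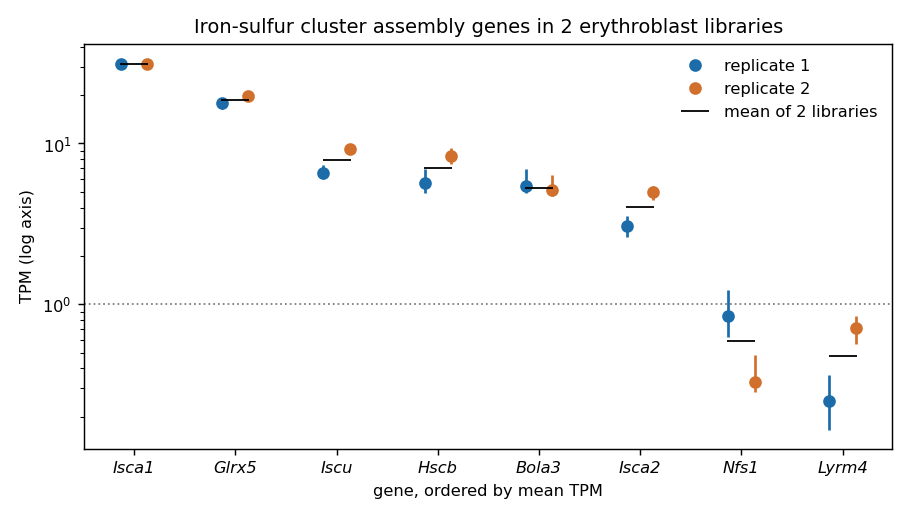
TPM on a log axis for each gene in replicate 1 (blue) and replicate 2 (orange), with the deposited TPM interval of each library as a vertical line, the mean as a black bar, and a TPM of 1 as a dotted line. Isca1 and Glrx5 stand above the rest in both libraries, while Nfs1 and Lyrm4 lie below 1 in both and differ most between them.

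Nfs1 and Lyrm4, whose products form the desulfurase complex, were the lowest of the 8. Nfs1 (ENSMUSG00000027618, mm10 chromosome 2, 156123639 to 156144186, minus strand) stood at 0.850 TPM in replicate 1 and 0.330 TPM in replicate 2, from 54 and 66 counts. Lyrm4 (ENSMUSG00000046573, chromosome 13, 35978395 to 36117526, minus strand) stood at 0.250 and 0.710 TPM, from 25 and 102 counts. Nfs1 was thus higher in replicate 1 and Lyrm4 higher in replicate 2. Within a library, Iscu stood above Nfs1 by 7.71 times in replicate 1 and by 28 times in replicate 2. Iscu stood above Lyrm4 by 26.2 and 13.01 times. On the log2 scale the ratios to Iscu were -3.88 ± 1.32 for Nfs1 and -4.21 ± 0.71 for Lyrm4. By mean TPM Nfs1 ranked 5219 and Lyrm4 5828 among the 21461 nuclear protein-coding genes.

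The difference of Nfs1 in TPM was far larger than that in its reads. As a share of nuclear protein-coding counts, replicate 2 stood at 0.788 times replicate 1, with a 95% interval of 0.542 to 1.15. That interval is exact binomial (Clopper-Pearson) and covers counting error only. In rescaled TPM the ratio was 0.356. The mean transcript length behind the TPM was 1016 bases in replicate 1 and 2043 bases in replicate 2, as the counts were divided differently among its transcripts. In replicate 1 the 510-base transcript Nfs1-204 took 12.03 counts and 52.3% of the gene's TPM, and the full-length Nfs1-201 took 28.0 counts and 23.8%. In replicate 2 Nfs1-201 took 65 counts and 98.1%, and Nfs1-204 had 0 counts. Nfs1-201 alone stood at 0.200 and 0.320 TPM.

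The splice that separates these transcripts leaves Nfs1-201 after base 156134406 for 156132726, and leaves Nfs1-204 after base 156134459 for 156123978. Both boundaries are coding. The bases come from GENCODE M21 transcripts on mm10, as do all junctions below, and capitals mark the downstream exon in each line, read 5′ to 3′ along the gene.
Nfs1-201: atcattgacttaaagGAACTAGAGGCTGCC
Nfs1-204: ccctggaagctgaggGACCTACCTGTGCAG
Most of the gene's TPM in replicate 1 thus rests on the few counts given to the shorter transcript. Nfs1-201 shares 99 words of 50 bases with Romo1-201, on the opposite strand, which held 5.95 and 10.8 counts. It shares 209 with transcripts of Gm28036 on its own strand, which held 0 counts, while that gene as a whole held 4.91 and 22.5 counts. Among nuclear protein-coding genes with 20 counts in both libraries, the ratios by TPM and by counts differed by over 1.5-fold in 11.8%, and Nfs1 was the 1 gene of the 8 where they did.

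Lyrm4 differed between the libraries by either measure. Its rescaled TPM was 5.35 and 13.9, a ratio of 2.60, and its count share gave a ratio of 2.63 (95% interval 1.68 to 4.25, counting error only). Of genes whose counts averaged 20 to 100, 56.8% passed 1.5-fold in rescaled TPM and 52.7% in count share. Lyrm4 is listed with a single transcript of 1515 bases, against 2086 bases for the same transcript in GENCODE M21. The M21 form of Lyrm4 shares 66 words of 50 bases, on the opposite strand, with Fars2-201, which had 124 and 58.2 counts. Whether these words lie within the 1515 bases that were counted was not tested. Whether the counting used strand is not given in the sources used here.

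Iscu, the scaffold on which clusters are first built, stood at 6.55 TPM in replicate 1 and 9.24 TPM in replicate 2, a mean of 7.895 ± 1.90. It lies on chromosome 5 (ENSMUSG00000025825, 113772748 to 113778288, plus strand) and had 412 and 837 counts. It was higher in replicate 2 also in rescaled TPM (140 and 181), and its count share gave a ratio of 1.31 (95% interval 1.16 to 1.48). Of genes whose counts averaged 100 to 1000, 33% passed 1.5-fold in rescaled TPM and 26.8% in count share, and Iscu passed in neither. Of its 7 listed transcripts, 3 had counts, all of them coding, and neither of its transcripts marked for nonsense-mediated decay had any. Its pseudogene Gm16437 shares 213 words of 50 bases with Iscu-201 and held 1.08 and 5.14 counts.

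Iscu-201 led with 84.5% and 86.4% of the gene's TPM, and Iscu-202 took 9.89% and 9.39%. They part at the end of the fourth exon, base 113776849: Iscu-201 is spliced to 113777833, and Iscu-202 reads on for 949 bases and so encodes another carboxyl end. Capitals mark what follows the shared exon end, and both sides are coding.
Iscu-201: aactgcactgctccaTGCTGGCAGAAGACG
Iscu-202: aactgcactgctccaGTGAGTCTGCCCCAC
Iscu-202 shares words of 50 bases with 38 other genes, against 1 for Iscu-201, so its own share is less certain. The levels were 5.53 and 7.99 TPM for Iscu-201, and 0.650 and 0.870 TPM for Iscu-202. The shares differed by under 2 percentage points between the libraries, while the gene as a whole stood at 6.55 and 9.24 TPM.

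Hscb, the co-chaperone that recruits the HSPA9 chaperone to the loaded scaffold, stood at 5.71 and 8.31 TPM, a mean of 7.01 ± 1.84. It lies on chromosome 5 (ENSMUSG00000043510, 110829070 to 110839777, minus strand) and had 195 and 400 counts. Its ratio to Iscu was nearly the same in both libraries, 0.872 and 0.899. Its count share gave a ratio of 1.32 between the libraries (95% interval 1.11 to 1.58). No transcript of another gene shared a word of 50 bases with it.

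About as much of the Hscb level in TPM was assigned to a transcript annotated for nonsense-mediated decay as to the full coding one. That pathway degrades messages with an early stop. Hscb-201, the coding transcript, stood at 2.68 and 3.84 TPM, or 47.0% and 46.25% of the gene. Hscb-203, annotated for decay, stood at 2.67 and 4.46 TPM, or 46.7% and 53.75%. The order of the pair thus turned between the libraries. The remaining 6.27% in replicate 1 was Hscb-204, a short coding transcript with 8.18 counts there and 0 in replicate 2. Hscb was the 1 gene of the 8 not led by a coding transcript in both libraries. How often this holds among all nuclear protein-coding genes was not counted.

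Hscb-203 starts inside the second exon of Hscb-201, and where both are annotated they part at 1 splice donor. In Hscb-201 the exon ends at base 110835980 and in Hscb-203 it runs 5 bases further, to 110835975, before both join 110834799. These 5 bases, in capitals below, shift the reading frame, and the annotated coding part of Hscb-203 ends at the first base after the junction.
Hscb-201: agaggactatatcttctaaagctccaggga
Hscb-203: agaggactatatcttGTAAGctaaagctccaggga
Hscb-204 ends its exon at the same longer donor and then skips the next exon. Hscb-203 is annotated with 434 bases against 804 for Hscb-201, and took 57.5 and 134 counts against 129 and 266. Its share by counts was thus smaller than its share by TPM. On coding transcripts alone Hscb stood at 3.04 and 3.84 TPM, which moved it below Bola3 and Isca2 in the order of means. Its range there overlapped that of Isca2, at 3.09 and 5.00 TPM, so that pair was not set apart.

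Glrx5, the glutaredoxin that carries the newly made cluster onward, was second of the 8 at 17.7 TPM in replicate 1 and 19.8 TPM in replicate 2, a mean of 18.8 ± 1.46. It had 1015 and 1636 counts and ranked 252 among nuclear protein-coding genes. In rescaled TPM it stood at 379 and 388, a ratio of 1.02. Its count share gave 1.04 (95% interval 0.960 to 1.12). It was thus alike in both libraries once the differing share of nuclear protein-coding RNA was taken out. Its ratio to Iscu was 2.71 and 2.14, and its level was 0.415 and 0.430 times that of Fech, the ferrochelatase gene.

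Glrx5 lies on chromosome 12 (ENSMUSG00000021102, 105032688 to 105042906, plus strand). The tables list a single transcript of 930 bases, while GENCODE M21 gives the same transcript 2925 bases, so its level rests on the shorter model. Its upstream sequence is shown because Glrx5 was abundant in both libraries and because the letters CCAAT recur in it. The window is chr12:105032368-105032617 (RefSeq, GRCm38.p6, plus strand), the 250 bases before the RefSeq start, with CCAAT on either strand in capitals.
Glrx5: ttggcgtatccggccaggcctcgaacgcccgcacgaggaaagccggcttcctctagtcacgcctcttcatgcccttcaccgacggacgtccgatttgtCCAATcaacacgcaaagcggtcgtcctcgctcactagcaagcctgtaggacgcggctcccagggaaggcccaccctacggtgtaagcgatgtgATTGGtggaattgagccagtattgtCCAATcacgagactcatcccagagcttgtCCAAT
The window holds CCAAT 4 times. Of 32851 such windows in the promoter table, 33.8% hold it at least once and 0.84% at least 4 times. The cutoff of 4 was taken from this window after several motifs were searched in the windows of these genes. The 0.84% is therefore not a test of rarity. It holds CACCC once on either strand, which 52% of windows contain. The letters GATAA, found in 22.6% of windows, are not in this one on either strand. These matches describe letters and were not tested against the level of the gene.

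Isca1, which acts with Isca2 to form the larger type of cluster, was the most abundant of the 8. It stood at 31.4 TPM in replicate 1 and 31.1 TPM in replicate 2 and ranked 144 among nuclear protein-coding genes. It lies on chromosome 13 (ENSMUSG00000044792, 59755409 to 59769810, minus strand) and had 4152 and 6034 counts. In rescaled TPM it stood at 671.5 and 610.3, a ratio of 0.909, and its count share gave 0.937 (95% interval 0.900 to 0.975). Of genes whose counts averaged 1000 or more, 4.39% passed 1.5-fold in rescaled TPM and 2.51% in count share, and neither Isca1 nor Glrx5 did. Isca1 stood at 4.79 and 3.37 times Iscu, and at 0.736 and 0.677 times Fech.

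The spliced Isca1-201 carried 94.98% and 93.8% of the gene's TPM, and Isca1-202, annotated as a retained intron, carried 5.02% and 6.17%. The retained form, of 2553 bases, had 274 and 489 counts, or 1.58 and 1.92 TPM. Its counts were more than those of the whole of Nfs1, Lyrm4 or Isca2 in each library. In TPM, which allows for length, it stood above Nfs1 and Lyrm4 but below Isca2, at 3.09 and 5.00 TPM with 868 bases. The transcripts part after base 59762742, where Isca1-201 is spliced to 59758995 and Isca1-202 reads into the intron. Capitals mark the downstream exon in the first line and the intron in the second.
Isca1-201: gacaaacctgagcatGTGGGTCTGAAAGTT
Isca1-202: gacaaacctgagcatGTAAGTAACTGTTGA
Isca1-202 shares words of 50 bases with 14 other genes and its share is less certain. A near copy, AK157302, shares 1237 words of 50 bases with Isca1-201 and held 5.02 and 2.52 counts against 4152 and 6034 for Isca1. The antisense gene Etohd2, annotated beside the start of Isca1, held 858 and 1444 counts and shares no word of 50 bases with the Isca1 transcripts in the tables.

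Isca2, the partner of Isca1, stood far lower, at 3.09 TPM in replicate 1 and 5.00 TPM in replicate 2, a mean of 4.045 ± 1.35. It lies on chromosome 12 (ENSMUSG00000021241, 84773251 to 84775088, plus strand), is listed with a single transcript and had 163 and 380 counts. Isca1 was 10.2 and 6.22 times as high as Isca2 in TPM. The difference between the libraries lay at the limit of the 1.5-fold rule. It was 1.48 in rescaled TPM and 1.503 in count share, where the 95% interval ran from 1.25 to 1.82. In unscaled TPM it was 1.62.

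Bola3, which works with NFU1 in handing clusters to lipoate synthase and other client enzymes, stood at 5.43 and 5.16 TPM, a mean of 5.295 ± 0.191. It lies on chromosome 6 (ENSMUSG00000045160, 83349147 to 83360136, plus strand) and had 172 and 282 counts. Its direction between the libraries turned with the measure: 0.871 in rescaled TPM and 1.06 in count share (95% interval 0.871 to 1.29). Neither passed 1.5-fold. Of its 9 listed transcripts 4 had counts. Bola3-203 and Bola3-207 among them differ in their annotated first exon, and where transcription started was not measured.

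Bola3-203, whose first exon begins furthest upstream, carried 85.3% and 93.6% of the gene's TPM. Bola3-207, which begins in a first exon of its own, carried 1.04% and 6.37%, from 8.87 and 75.4 counts. Bola3-206 and Bola3-201, neither annotated as coding, took 7.6% and 6.05% in replicate 1 and had 0 counts in replicate 2. The first exons of Bola3-203 and Bola3-207 end at 83349237 and 83349554 and both join 83351266. The promoter table gives Bola3 3 windows. That before the annotated start of Bola3-203 is chr6:83348897-83349146 (RefSeq, GRCm38.p6, plus strand), shown with CCAAT in capitals.
Bola3: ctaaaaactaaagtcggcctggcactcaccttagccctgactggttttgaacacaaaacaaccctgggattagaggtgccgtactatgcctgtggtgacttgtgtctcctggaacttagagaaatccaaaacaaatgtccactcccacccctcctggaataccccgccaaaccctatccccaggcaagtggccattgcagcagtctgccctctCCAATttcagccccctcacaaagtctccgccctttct
It holds CCAAT once, counting both strands, and the letters GGGCGG once, which 32.7% of windows contain. The table held 6 of the 8 genes.

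**Figure D2:**
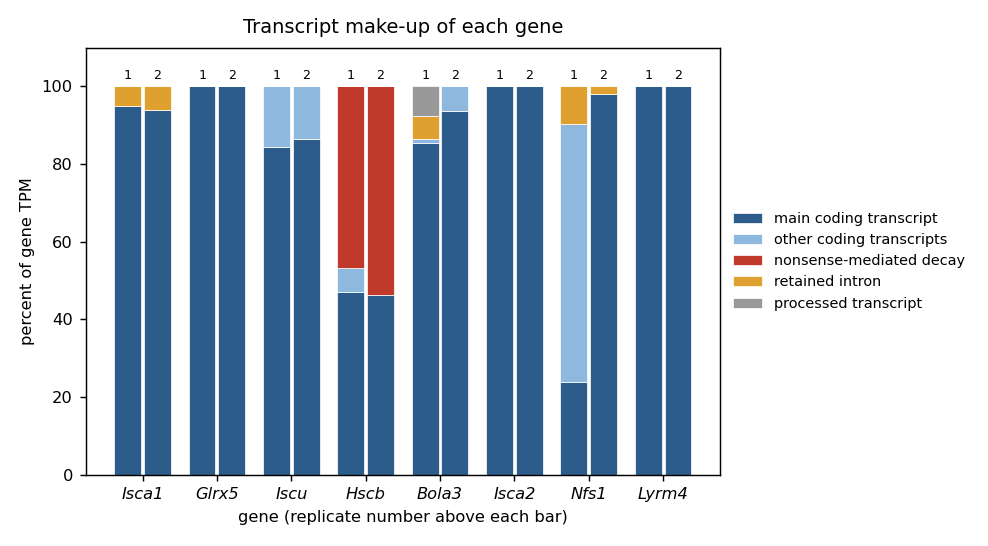
Percent of each gene's TPM carried by its transcripts in replicate 1 and replicate 2, stacked by kind of transcript as annotated. Hscb is split between its coding and decay-marked transcripts at 47.0% and 46.7% in replicate 1, and Nfs1 moves from 23.8% to 98.1% in its full-length transcript.

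Between the libraries, 2 of the 8 genes passed 1.5-fold in rescaled TPM, Nfs1 higher in replicate 1 and Lyrm4 higher in replicate 2, against 38% of the 8233 nuclear protein-coding genes with 20 counts in both. By direction the background was 17.7% higher in replicate 2 and 20.3% higher in replicate 1. In count share, a measure chosen after seeing the data, 2 of 8 also passed, but they were Lyrm4 and Isca2, against 33% of genes. Lyrm4 was past 1.5-fold by every scaling tried. With counts scaled by edgeR's TMM factors or by DESeq2's size factors it was the 1 gene of the 8 to pass. The deposited intervals, which are on unscaled TPM, overlapped between the 2 libraries for Isca1 and Bola3 and lay apart for the other 6 genes. Glrx5 lay apart by the least (upper 18.6 and lower 18.7 TPM), and its ratio in rescaled TPM was 1.02. The share of all nuclear protein-coding genes with intervals apart was not counted, so the 6 have no background beside them.

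**Figure D3:**
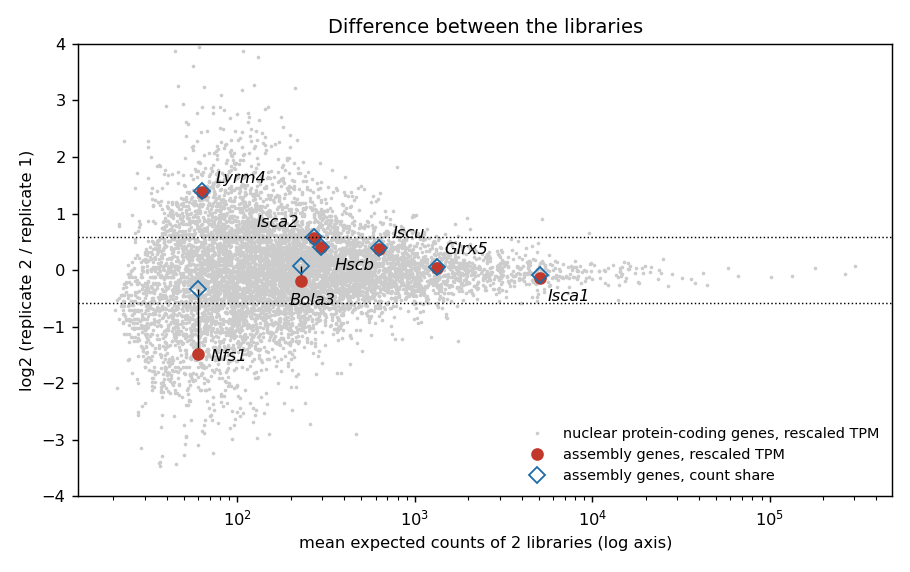
Log2 ratio of replicate 2 to replicate 1 against mean expected counts (log axis) for 8233 nuclear protein-coding genes (grey, rescaled TPM) and the 8 assembly genes in rescaled TPM (red) and count share (open diamonds), with dotted lines at 1.5-fold. The measures part for Nfs1, at -1.49 against -0.34, and Lyrm4 stands at 1.38 and 1.40.

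The other genes of mitochondrial assembly had a lower median than the 8 genes, at 0.520 and 0.440 TPM. Of these 15 partners, 4 reached a TPM of 1 in both libraries, against 14.5% of nuclear protein-coding genes. Slc25a37, the mitoferrin that brings iron into the mitochondrion of red cell precursors, stood apart at 172.7 and 175.9 TPM. Ndufab1, the acyl carrier protein bound to the desulfurase complex, stood at 3.44 and 3.60 TPM, and Hspa9 at 1.91 and 2.51 TPM. The ferredoxin Fdx2, which supplies electrons for assembly on the scaffold, stood at 0.520 and 0.390 TPM. Its reductase Fdxr had 19 counts in replicate 1 and 0 in replicate 2, which allows up to 3 counts or 0.0266 TPM. Fdx1, a related ferredoxin, had 6 and 0 counts. Nubpl, an assembly factor of complex I, had 15 and 11 counts, or 0.07 and 0.08 TPM. Of the late partners, Iba57, which works with Isca1 and Isca2, stood at 1.47 and 0.600 TPM and Nfu1 at 0.820 and 0.770 TPM. The median over nuclear protein-coding genes with 20 counts in both libraries was 0.80 and 0.87 TPM.

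Cytosolic assembly, which serves proteins of the cytosol and nucleus, had 4 of 11 genes at a TPM of 1 in both libraries, against the same 14.5% of nuclear protein-coding genes, and medians of 0.480 and 0.690 TPM. Ciao2a, whose product matures IRP1, led at 3.43 and 4.24 TPM, followed by Ciapin1 at 1.67 and 1.34 TPM and Glrx3 at 1.24 and 1.16 TPM. Nubp1 and Ciao2b were lowest, at 0.0500 and 0.350 TPM and at 0.250 and 0.0800 TPM. Of 28 client proteins that carry a cluster, 11 reached a TPM of 1 in both libraries, again beside 14.5% of nuclear protein-coding genes. Fech led at 42.7 and 46.0 TPM, ahead of the complex I subunits Ndufv1 at 3.77 and 3.52 TPM and Ndufv2 at 3.12 and 2.64 TPM. The repair glycosylases Nthl1 and Mutyh had 3 and 0 counts and 0 and 3 counts. Aco1, which encodes IRP1, stood at 0.420 and 0.350 TPM, and Ireb2, which encodes the related IRP2, at 0.710 and 0.720 TPM. Over all 55 genes of these lists the median was 0.660 and 0.710 TPM. Among the 43 with 20 counts in both, 5 were over 1.5-fold higher in replicate 2 and 8 in replicate 1, against 17.7% and 20.3% of all nuclear protein-coding genes at that depth.

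**Figure D4:**
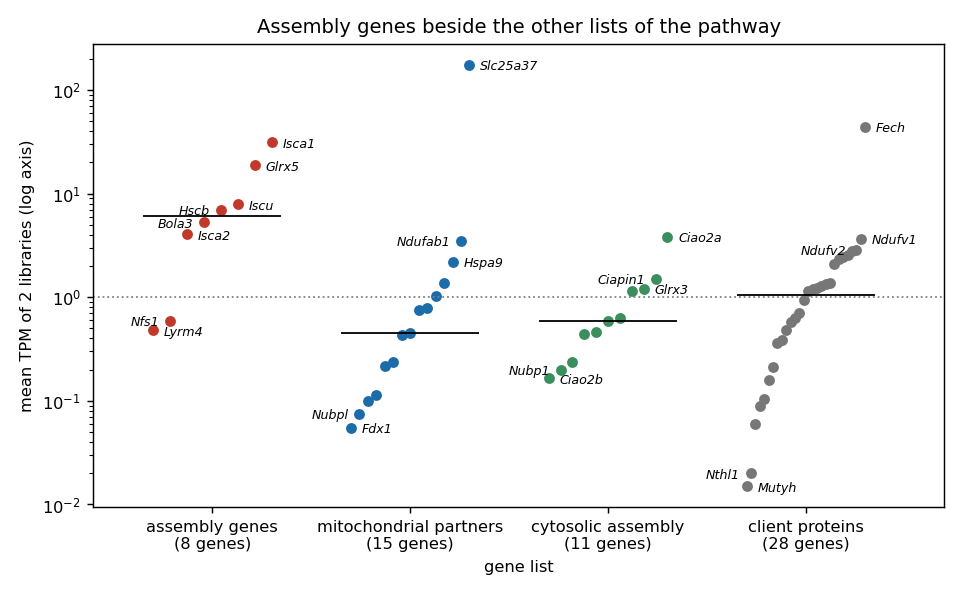
Mean TPM of 2 libraries (log axis) for the 8 assembly genes and the genes of 3 other lists, with the median of each list as a black line and a TPM of 1 as a dotted line. Isca1 and Glrx5 lie between Fech and the bulk of the pathway, while Nfs1 at 0.590 TPM and Lyrm4 at 0.480 TPM lie near the medians of the mitochondrial partners and of cytosolic assembly.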

How the data were processed

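Each library came with a gene and a transcript table on mm10 with annotation M4, per the deposited read-me. No aligner or quantifier is named in the sources used here. The authors deposited expected counts (estimated reads, not always whole), TPM scaled over all rows, FPKM, and a posterior mean of TPM with interval bounds, both treated as a score. The intervals' level is not stated. The deposited percent of a gene's TPM per transcript gave transcript shares. Of 43346 gene rows, 42462 were matched to GENCODE M21 by identifier without version, which gave symbols, types and coordinates. Means and SDs were taken over 2 libraries in Python 3.11.15. Expected counts were rounded for edgeR 4.0.16 and DESeq2 1.42.0, which gave alternative scaling factors. The edgeR scaling was tried on simulated counts with counting error alone, which does not cover the wider spread between these libraries. A chi-square test of rounded counts over 11334 genes (statistic 556155 on 11333 degrees of freedom) set the libraries apart as separate libraries. Words of 50 bases shared with other genes were counted in M21 transcripts, which also gave the junction sequences. The transcripts whose junctions are printed have equal lengths in M21 and the deposited tables, and those of Glrx5, Isca2 and Lyrm4 do not. All 8 genes, and at least the 3 highest and 2 lowest of each other list, were named by rule. The genes and lists were chosen with earlier results of these data known. Alternatives were other units, scalings, cutoffs, coding transcripts alone and either library left out.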

Additional observations from a re-analysis of the deposited data

How the results depend on the processing

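No paired analysis was possible because the 2 libraries form 1 group. Over the alternatives to the main results, 68 values stayed within 1 SD or 1.5 times of the reported one, and 11 did not. Part of the 68 could not have moved, so the tally does not measure robustness. With 2 libraries, leaving either out shifts a mean by less than its SD. Ratios to Iscu within a library are the same in FPKM as in TPM but for rounding. All 8 genes had 20 counts, so dropping that filter changed nothing. Directions between the libraries were not among the tallied values, and that of Bola3 turned, from a log2 of -0.20 in rescaled TPM to 0.07 with TMM factors, 0.07 with DESeq2 size factors and 0.08 in count share. The count of pathway genes detected, 19 of 55, became 30 at a TPM of 0.5, 10 at a TPM of 2 and 32 at a rescaled TPM of 10, since other cutoffs admit other genes. The median of the 8 genes was 4.49 TPM on coding transcripts alone, an alternative chosen after seeing the data, and their share of nuclear protein-coding TPM was 0.273% without the adult globins. The count past 1.5-fold, 2 of 8, became 1 with edgeR's TMM factors and 1 with DESeq2's size factors. With a pseudocount of 1 TPM, log2 ratios to Iscu became -2.49 for Nfs1, -2.59 for Lyrm4 and -0.83 for Isca2. That of Hscb became -1.19 on coding transcripts alone. With 2 libraries and 25 to 102 counts behind Nfs1 and Lyrm4, differences of these genes are not precise.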

Other observations

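The genes below were chosen after their values were seen. Iba57, a late assembly factor, differed between the libraries in TPM more than in counts, as Nfs1 did: it stood at 1.47 TPM in replicate 1 and 0.600 TPM in replicate 2, with 198 and 217 counts and mean transcript lengths of 2011 and 3537 bases. Lias, the lipoate synthase served by Bola3 and Nfu1, differed in its counts, at 75 and 348, and stood at 0.660 and 1.66 TPM. Bola1, a relative of Bola3, had 19 counts in replicate 1 and 2 in replicate 2, and Nubp1 had 8 and 74.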
